A study of Mus musculus with 9 samples.

Results

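This comparison sets the 3 brain libraries of mice that carry a Cd5l transgene against the mean of the 2 genotypes without it, 5xFAD and wild-type, each genotype with equal weight. It uses all 9 libraries of the study, 3 with the transgene and 6 without, chosen by the genotype in their labels. Transcripts were counted by bulk RNA sequencing of total RNA from the brain, with the cerebellum removed, of mice aged 7 months, and each library is titled as a mouse of its own. Wild-type mice carry no transgene. 5xFAD mice carry mutant human amyloid precursor protein and presenilin genes under the neuronal Thy1 promoter and accumulate amyloid plaques. The third genotype, 5xFAD/Cd5l tg/wt, carries the same amyloid transgenes and a further transgene in which the human PDGF-B promoter, active mainly in neurons, drives mouse Cd5l; these mice are called carriers here. The genotype Cd5l tg/wt without the amyloid transgenes is not among the 9 libraries, so that the transgene was measured on the amyloid background alone, and whether the line is 1 founder is not given in the sources used here.

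CD5L, also called apoptosis inhibitor of macrophages, is a secreted protein of the scavenger receptor cysteine-rich family that tissue macrophages make and that circulates bound to pentameric IgM. It enters cells through CD36, binds fatty acid synthase and tags debris for uptake by phagocytes. In the brain, the resident phagocytes are microglia, which gather at amyloid plaques and there switch from a homeostatic programme to a disease-associated one led by genes such as Trem2, Cst7 and Clec7a. A contrast of carriers with the mean of the 2 other genotypes can pass because carriers differ from both, or because they differ strongly from 1 of them, and both kinds of gene are described below.

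Cd5l itself (chromosome 3, 87265188 to 87278380, build GRCm39 as in the deposited table) was read 2553, 2822 and 3551 times in the carriers. In the 6 other libraries together it was read 1 time, in wild-type library 2. The carriers stood at 170.0, 190.3 and 200.4 CPM (counts per 1000000 counts after scaling of library sizes), with no overlap with the others. The ratio of the pooled counts was 18009, with a 95% exact counting interval of 3231 to 711400 that covers counting error only and is wide because the denominator is a single read. The labels of the 9 libraries thus matched this transcript in every library. The counts do not separate transgene from endogenous reads.

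Of 17575 genes tested, 709 (4.03%) passed the contrast at an adjusted p under 0.05 in edgeR's quasi-likelihood test, the source of all adjusted p-values below. Of these, 610 (3.47% of tested genes) were higher in carriers and 99 (0.563%) lower, and 175 higher and 21 lower genes differed over 2-fold. At an unadjusted p under 0.05 in this contrast there were 3573 of the 17575 genes, in either direction. Unadjusted counts of the contrast given below are to be read beside that share. Most of the calls came through 1 of the 2 genotypes. Of the 610 higher genes, 392 also passed against 5xFAD but not against wild-type, 168 against wild-type but not 5xFAD, 21 against neither alone and 29 against both. Of the 99 lower genes, 59, 12, 16 and 12 fell in those classes. Over all tested genes, 5.34% were higher and 0.888% lower in carriers than in 5xFAD, 1.38% higher and 0.199% lower than in wild-type, and 3.5% differed between 5xFAD and wild-type. The 29 higher genes (0.165% of tested genes) and 12 lower genes (0.0683%) that passed against both with the same sign are called set apart. In all 41 the 3 carrier libraries lay outside the range of the other 6, whereas 668 tested genes (3.8%) had carriers above and 571 (3.25%) carriers below the other 6. The counts rested on single libraries. Without carrier libraries 1, 2 and 3 in turn 1665, 263 and 138 genes passed, and without 5xFAD libraries 1 and 2 307 and 292 did. Higher and lower genes were 1056 and 609, 241 and 22, and 127 and 11 without carriers 1, 2 and 3. They were 286 and 21, 273 and 19, and 549 and 97 without 5xFAD libraries 1, 2 and 3. Without wild-type libraries 1, 2 and 3 they were 425 and 69, 474 and 115, and 500 and 87. These fits tested 17895 to 18028 genes, and list counts from them are to be read beside these numbers. The direction of all 41 set-apart genes held in each of these fits. With carriers outside the range of the other 6, this was largely fixed in advance and is no sign of stability. Of the 41, 34, 15 and 5 stayed set apart without carrier libraries 1, 2 and 3, 6, 6 and 28 without 5xFAD libraries 1, 2 and 3, and 25, 24 and 22 without wild-type libraries 1, 2 and 3. When the 6 other libraries were fitted as 1 group, which counts the difference between 5xFAD and wild-type as noise, 2 genes passed, Cd5l and Rgs6.

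**Figure D1:**
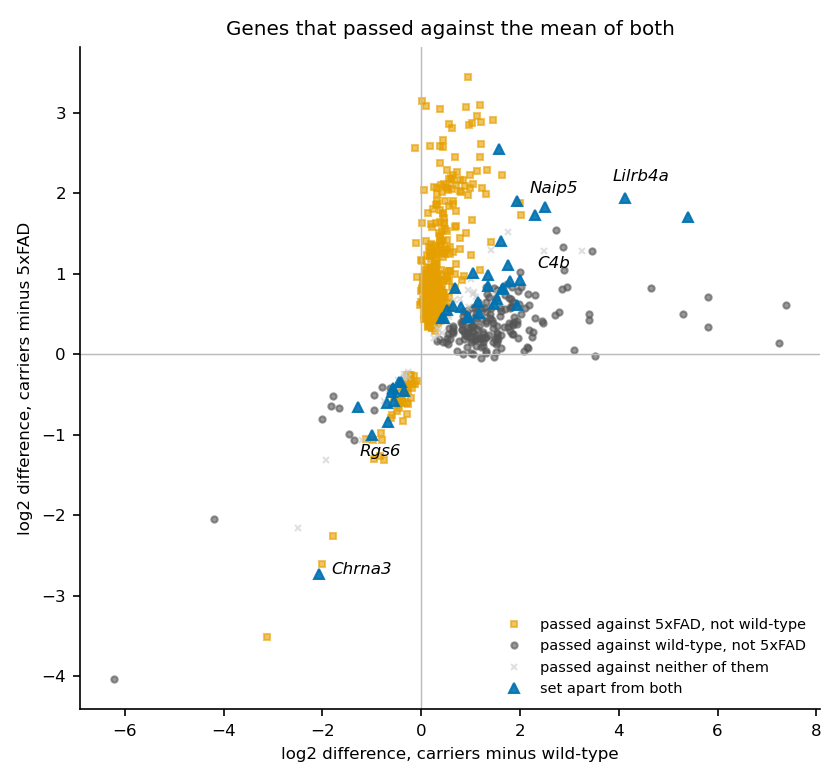
Log2 difference of carriers from wild-type (horizontal) and from 5xFAD (vertical) for each gene that passed the contrast, Cd5l left out. Squares passed against 5xFAD alone, circles against wild-type alone, crosses against neither, and triangles against both; the squares form a column near 0 on the wild-type axis, and the circles a band near 0 on the 5xFAD axis.

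Some set-apart genes stepped up from wild-type to 5xFAD and again from 5xFAD to carriers. For 9 of the 29 higher genes 5xFAD also passed above wild-type (1.06% of tested genes did so): Lilrb4a, Ptpn6, C4b, Nckap1l, Rasal3, Olfr111, Ptprc, Man2b1 and Apbb1ip. Lilrb4a (chromosome 10, 51367052 to 51372707), an inhibitory immunoglobulin-like receptor of myeloid cells, was at 0.291, 0.182 and 0.138 CPM in wild-type mice, 0.993, 0.617 and 1.34 CPM in 5xFAD mice and 2.93, 3.84 and 4.46 CPM in carriers. Its libraries fell into 3 steps without overlap. The log2 difference ± SE was 3.03 ± 0.30 (adjusted p = 0.000261) against the mean of both, 1.94 ± 0.33 (adjusted p = 0.00542) against 5xFAD and 4.13 ± 0.41 (adjusted p = 0.000121) against wild-type. Ptpn6 (chromosome 6, 124697670 to 124715677) encodes SHP-1, the phosphatase that binds such inhibitory receptors. It stood at 3.02, 3.28 and 2.97 CPM in wild-type mice, 8.01, 7.18 and 8.23 CPM in 5xFAD mice and 12.3, 10.05 and 13.4 CPM in carriers, again in 3 steps, and differed by 0.61 ± 0.15 (adjusted p = 0.0330) from 5xFAD and by 1.94 ± 0.16 (adjusted p = 2.32e-05) from wild-type.

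C4b (chromosome 17, 34947354 to 34962856), the fourth complement component, was at 61.9, 39.9 and 42.5 CPM in wild-type mice, 102, 92.7 and 112 CPM in 5xFAD mice and 261, 152 and 169 CPM in carriers. Carrier library 1 was the highest, and all 3 carriers lay above every other library. The difference was 0.92 ± 0.19 (adjusted p = 0.0161) from 5xFAD and 2.01 ± 0.20 (adjusted p = 0.000121) from wild-type. Ptprc (chromosome 1, 137990599 to 138103446), the pan-leukocyte phosphatase CD45, was at 4.48, 4.56 and 3.66 CPM in wild-type mice, 6.29, 7.18 and 9.302 CPM in 5xFAD mice and 11.7, 12.5 and 15.9 CPM in carriers. It rose by 0.82 ± 0.18 (adjusted p = 0.0198) over 5xFAD, and the steps did not overlap. Nckap1l (chromosome 15, 103362221 to 103407237), the blood-cell subunit of the WAVE complex that builds branched actin, was at 11.6, 12.6 and 11.1 CPM in wild-type mice, 18.3, 17.004 and 20.7 CPM in 5xFAD mice and 28.4, 23.7 and 27.8 CPM in carriers and rose by 0.51 ± 0.11 (adjusted p = 0.0189) over 5xFAD.

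The other stepped genes did the same at smaller size or lower level. Rasal3, a Ras GTPase-activating protein of blood cells, rose by 0.68 ± 0.16 (adjusted p = 0.0239) over 5xFAD, with 5.15 to 5.29 CPM in 5xFAD and 7.82 to 8.75 CPM in carriers. Apbb1ip, the RIAM adaptor that links Rap1 to integrins, rose by 0.62 ± 0.17 (adjusted p = 0.0497), which lies at the edge of the threshold. Man2b1, lysosomal alpha-mannosidase, was at 52.6, 51.8 and 44.9 CPM in wild-type mice, 67.7, 62.4 and 79.4 CPM in 5xFAD mice and 106, 89.3 and 93.7 CPM in carriers and rose by 0.46 ± 0.10 (adjusted p = 0.0209) over 5xFAD. Olfr111, annotated as an olfactory receptor, was at 2.26, 2.23 and 1.81 CPM in carriers, 0.728, 0.281 and 0.937 in 5xFAD and at most 0.0691 in wild-type mice, where 3 counts correspond to 0.174 to 0.207 CPM. Lilrb4a and C4b have near-identical neighbours in the mouse genome, and how the authors' counting split reads between such copies is not given in the sources used here.

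A second group was higher in carriers while 5xFAD and wild-type did not pass as different. This held for 20 of the 29 genes, Cd5l among them, and 9 had a 5xFAD difference from wild-type under 0.25 in size on the log2 scale. Tcirg1 (chromosome 19, 3946050 to 3957133), the a3 subunit of the proton pump that acidifies lysosomes, was at 12.7, 13.9 and 12.9 CPM in wild-type mice, 14.3, 13.4 and 12.8 CPM in 5xFAD mice and 21.2, 18.5 and 21.9 CPM in carriers. Wild-type and 5xFAD libraries shared 1 range, 12.7 to 14.3 CPM, and all carriers lay above it. The difference was 0.62 ± 0.09 (adjusted p = 0.00351) from the mean of both and 0.04 ± 0.11 between 5xFAD and wild-type. Il1a (chromosome 2, 129141530 to 129151892), the cytokine interleukin-1 alpha, was at 0.640, 0.851 and 0.691 CPM in wild-type mice, 0.794, 0.730 and 1.004 CPM in 5xFAD mice and 2.26, 2.16 and 2.31 CPM in carriers. Its carrier libraries were close to each other and lay above the range of the other 6, a difference of 1.51 ± 0.24 (adjusted p = 0.00510). Cd33 (chromosome 7, 43173640 to 43193852), a sialic acid-binding inhibitory receptor of microglia, was at 8.78, 9.06 and 9.196 CPM in wild-type mice, 10.7, 8.98 and 12.1 CPM in 5xFAD mice and 15.2, 16.9 and 15.2 CPM in carriers, a difference of 0.70 ± 0.11 (adjusted p = 0.00533). Naip5 (chromosome 13, 100348247 to 100382831), a cytosolic sensor of bacterial flagellin that assembles an inflammasome, was at 1.45, 1.64 and 0.622 CPM in wild-type mice, 1.32, 0.842 and 1.74 CPM in 5xFAD mice and 3.595, 5.73 and 5.13 CPM in carriers, a difference of 1.92 ± 0.29 (adjusted p = 0.00354). Naip5 lies in a cluster of similar genes whose copies differ between inbred mouse strains, and its split from them is uncertain.

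Osmr (chromosome 15, 6843058 to 6904450), the receptor for oncostatin M on astrocytes and other cells, was at 3.84, 3.77 and 2.97 CPM in wild-type mice, 6.95, 5.05 and 7.83 CPM in 5xFAD mice and 16.2, 9.85 and 11.003 CPM in carriers. The 3 genotypes did not overlap, and the difference was 0.90 ± 0.22 (adjusted p = 0.0302) from 5xFAD and 1.80 ± 0.23 (adjusted p = 0.000909) from wild-type, while 5xFAD missed the threshold against wild-type (adjusted p = 0.0603). Hpgds, the prostaglandin D synthase of microglia and mast cells, rose by 0.84 ± 0.20 (adjusted p = 0.0304) over 5xFAD, with 6.79 to 11.7 CPM in 5xFAD and 14.2 to 18.5 CPM in carriers. Slco2b1, an organic anion carrier of microglia and vessels, rose by 0.46 ± 0.12 (adjusted p = 0.0430). Gvin-ps7, a pseudogene of the very large interferon-inducible GTPases, rose by 0.81 ± 0.21 (adjusted p = 0.0431). Gsdmd, whose protein forms the pores of pyroptosis, was at 1.31 to 2.88 CPM in the 6 other libraries and 4.32 to 4.99 CPM in carriers, a difference of 1.17 ± 0.20 (adjusted p = 0.00804). Parp12, an interferon-induced ADP-ribosyltransferase, was at 9.26 to 13.95 against 17.3 to 21.2 CPM. Fes, a tyrosine kinase of myeloid cells, was at 3.11 to 5.33 against 7.32 to 8.41 CPM, and Apobec1, the enzyme that edits apolipoprotein B mRNA, at 1.87 to 2.67 against 3.57 to 5.53 CPM.

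Of the remaining set-apart genes that were higher, 2 are abundant in neurons. Mef2c, a transcription factor of cortical neurons and microglia, was at 391 to 499.9 CPM in the other 6 libraries and 559 to 646 CPM in carriers, a difference of 0.44 ± 0.08 (adjusted p = 0.00855). Ptprk, a receptor tyrosine phosphatase of cell contacts, was at 45.8 to 51.7 against 58.4 to 72.8 CPM, a difference of 0.46 ± 0.08 (adjusted p = 0.00708). In both, carrier library 1 was the nearest to the others. Without wild-type library 3 and carrier libraries 2 and 3, which stand apart in regional marker genes, the differences were 0.25 for Mef2c and 0.24 for Ptprk. That fit leaves 1 carrier library and holds no spread among carriers, so that only its differences are given. Arhgap17, a GTPase-activating protein, differed by 0.53 ± 0.10 (adjusted p = 0.00921), and Irag2, a protein of the endoplasmic reticulum of lymphoid cells, by 1.43 ± 0.26 (adjusted p = 0.00921). Lgals12, galectin-12, and the non-coding models Gm31152 and Gm8407 each stood at most at 2.16 CPM in a carrier, and the 3 calls rest on low counts. Without the same 3 libraries the difference was 1.499 for Il1a, 0.64 for Cd33, 1.33 for Naip5, 1.17 for Gsdmd, 0.76 for Parp12 and 0.77 for Fes. Apobec1 gave 1.13, Gvin-ps7 0.90, Arhgap17 0.48 and Irag2 1.16 there. The stepped genes gave 2.57 for Lilrb4a, 1.29 for Ptpn6, 1.85 for C4b, 0.90 for Nckap1l, 1.09 for Rasal3 and 0.99 for Ptprc. Man2b1 gave 0.80, Apbb1ip 1.07, Hpgds 1.05, Osmr 1.68, Slco2b1 0.80 and Tcirg1 0.65.

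**Figure D2:**
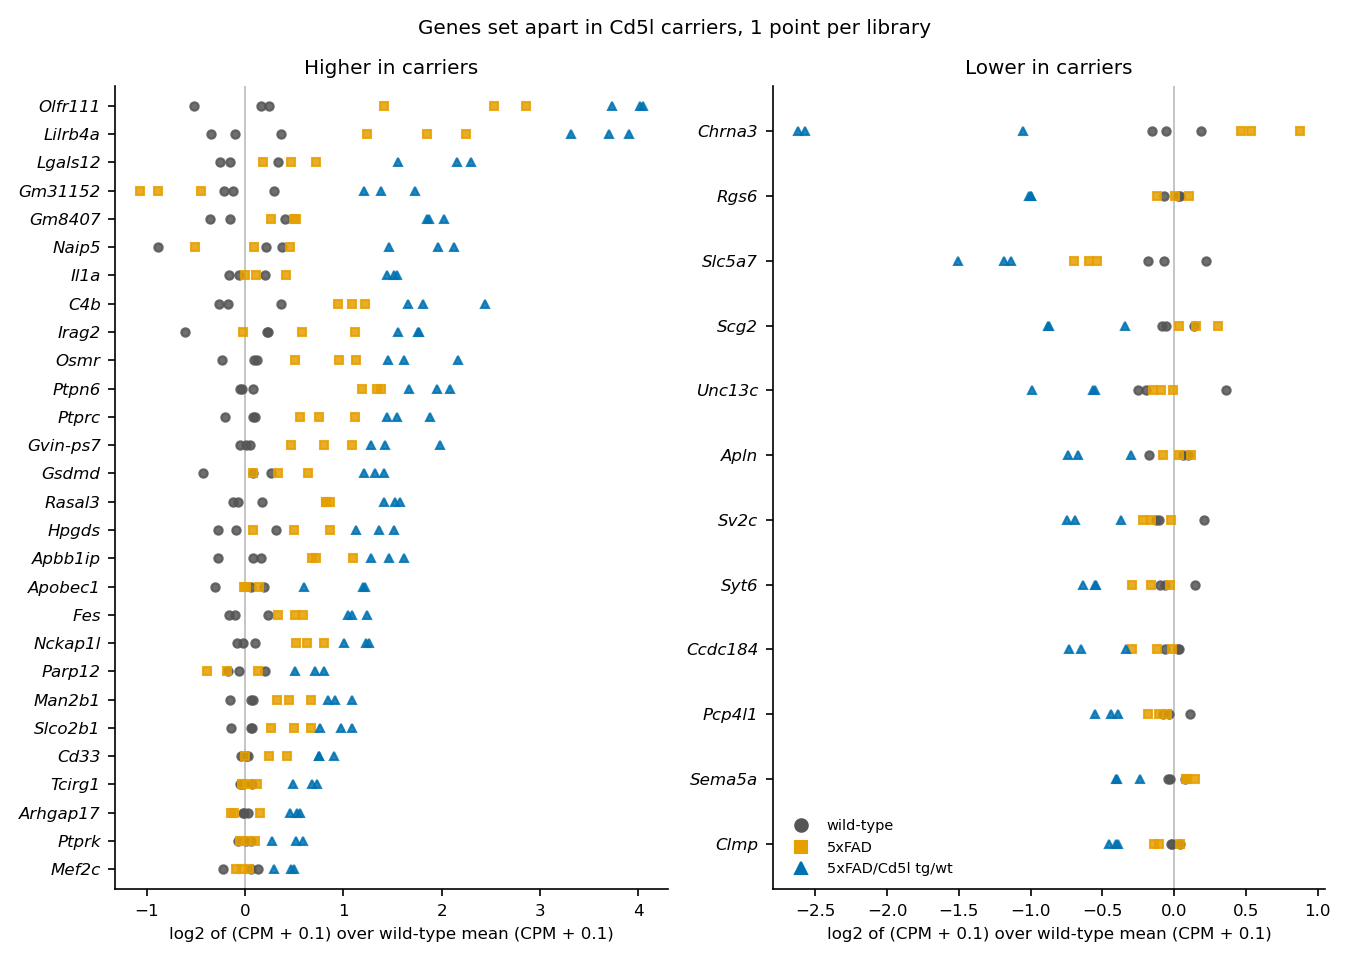
Log2 of each library's CPM (0.1 added) over the wild-type mean for 28 set-apart genes that were higher (left, Cd5l left out) and 12 that were lower (right), 1 point per library. Circles are wild-type, squares 5xFAD and triangles carriers; the triangles lie to the right of all other points in every row on the left and to their left in every row on the right.

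Summed levels of the microglial lists stand beside these genes. For the 30 genes of disease-associated microglia the sum was 4841 to 5379 CPM in wild-type, 6428, 6159 and 6677 CPM in 5xFAD and 7025, 5582 and 6457 CPM in carriers 1, 2 and 3, so that carrier library 2 lay below every 5xFAD library. Such a sum is set mostly by its most abundant members. Gene by gene, the median log2 difference of the 30 from 5xFAD was 0.15. The summed level of 19 tested homeostatic microglial genes was 697 to 754 CPM in wild-type, 1055 to 1280 CPM in 5xFAD and 1254 to 1336 CPM in carriers, so that carriers overlapped 5xFAD in part. None of the 4 microglial markers Cx3cr1, P2ry12, Csf1r and Tmem119 was at 0 in any library. Csf1r was at 134, 133 and 150 CPM in 5xFAD and 152, 151 and 166 CPM in carriers, with all carriers above. Cx3cr1 was at 74.1, 63.6 and 96.5 CPM in 5xFAD and 102, 90.4 and 103 CPM in carriers. P2ry12 was at 37.8, 37.3 and 45.8 CPM in 5xFAD and 37.4, 44.4 and 46.1 CPM in carriers. Tmem119 was at 30.8, 23.96 and 29.5 CPM in 5xFAD and 25.1, 24.8 and 23.7 CPM in carriers. The part of cell number in the set-apart genes was not tested, and in bulk tissue more cells of a type and more RNA per cell cannot be told apart.

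Promoter sequences of the set-apart genes were taken from RefSeq (build GRCm38.p6, another build than the deposited coordinates), from 250 bases before to 50 after each annotated start, and 21 of the 29 higher and 11 of the 12 lower genes had an entry. They were searched for GAGGAAGT on both strands (reverse ACTTCCTC), a motif of the ETS family of the kind bound by PU.1, the factor that directs myeloid genes; the motif was chosen with these results known. It was present for 3 of the 21 higher genes (14.3%), 1 of the 11 lower genes (9.09%) and 997 of 27025 genes in the whole table (3.69%). By window, it was in 3 of 30 for higher genes and in 1052 of 32851 in all (3.20%). The 4 windows that hold it are shown with the match in capitals; a match of these letters is a description and no binding was measured.
Apbb1ip, chr2:22774077-22774376, plus strand: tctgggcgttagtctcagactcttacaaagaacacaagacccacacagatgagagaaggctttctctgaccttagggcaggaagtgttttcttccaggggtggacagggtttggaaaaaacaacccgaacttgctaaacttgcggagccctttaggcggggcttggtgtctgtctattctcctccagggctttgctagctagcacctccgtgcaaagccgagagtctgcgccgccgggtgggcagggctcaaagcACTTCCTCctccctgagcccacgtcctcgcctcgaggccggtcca
Hpgds, chr6:65144681-65144980, minus strand: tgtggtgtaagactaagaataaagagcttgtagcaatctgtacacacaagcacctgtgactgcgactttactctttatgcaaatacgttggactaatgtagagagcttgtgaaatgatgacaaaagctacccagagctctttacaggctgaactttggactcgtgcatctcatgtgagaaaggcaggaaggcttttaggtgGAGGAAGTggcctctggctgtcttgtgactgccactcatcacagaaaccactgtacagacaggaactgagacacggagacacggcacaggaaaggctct
Slco2b1, chr7:99711291-99711590, minus strand: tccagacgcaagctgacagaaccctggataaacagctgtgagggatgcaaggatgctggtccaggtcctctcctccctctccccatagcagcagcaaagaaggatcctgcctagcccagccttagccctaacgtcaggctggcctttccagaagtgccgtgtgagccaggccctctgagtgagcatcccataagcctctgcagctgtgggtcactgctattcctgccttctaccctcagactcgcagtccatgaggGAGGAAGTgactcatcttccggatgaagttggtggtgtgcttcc
Ccdc184, chr15:98167556-98167855, plus strand: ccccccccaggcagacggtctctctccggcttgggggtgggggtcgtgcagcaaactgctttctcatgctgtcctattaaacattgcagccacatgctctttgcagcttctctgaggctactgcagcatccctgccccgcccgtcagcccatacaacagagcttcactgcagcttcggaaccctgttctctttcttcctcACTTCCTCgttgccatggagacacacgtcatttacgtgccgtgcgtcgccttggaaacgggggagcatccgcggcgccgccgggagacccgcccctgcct
In Hpgds and Slco2b1 the match reads GAGGAAGT on the gene's own strand, and in Apbb1ip and Ccdc184 it reads ACTTCCTC. Apbb1ip, Hpgds and Slco2b1 were higher in carriers. Ccdc184, a coiled-coil gene of neurons, was lower.

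Among the 12 genes that were lower, Rgs6 (chromosome 12, 82635066 to 83208830) had the smallest p. It encodes a member of the R7 family of RGS proteins, which pair with the G protein subunit Gnb5 and speed the shut-off of inhibitory G protein signalling. Rgs6 was at 60.9, 56.9 and 61.3 CPM in wild-type mice, 59.8, 64.2 and 54.9 CPM in 5xFAD mice and 29.6, 29.9 and 29.8 CPM in carriers. The 6 libraries without Cd5l spanned 54.9 to 64.2 CPM with no order between the genotypes, and the 3 carriers lay between 29.6 and 29.9 CPM. The difference was -1.004 ± 0.07 (adjusted p = 1.44e-05) from the mean of both, -1.004 ± 0.08 from 5xFAD, -1.004 ± 0.08 from wild-type and -0.000 ± 0.08 between 5xFAD and wild-type. It stayed set apart under every alternative in which that was defined, and its difference ran from -1.05 to -0.98 over 24 alternatives.

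Genes around Rgs6 on the chromosome were read for comparison. Of 51 other tested genes starting within 2000000 bases, 2 passed as higher, Srsf5 and Rbm25, at a median difference of 0.02. None passed as lower in edgeR's test, with DESeq2 or with limma-voom. At an unadjusted p under 0.05, 6 were higher and 2 lower. With 3.47% of all tested genes called higher and 0.563% lower, these counts are near the background and are no result about the neighbours. The nearest tested gene on the 1 side, Sipa1l1, differed by 0.02 ± 0.07 (adjusted p = 0.892), and Dpf3 on the other by -0.80 ± 0.33 (adjusted p = 0.198) with wild-type library 3 the highest of all. Dpf3 gave -0.81 (adjusted p = 0.00523) with no filter on low counts and -0.47 (adjusted p = 0.237) without wild-type library 3. Around endogenous Cd5l, 85 other genes were tested within the same distance. Fcrls and Gm3764 passed as higher and 0 as lower in edgeR's test, beside 3.47% and 0.563% of all genes. DESeq2 called 3 higher and 1 lower, and limma-voom 2 and 0. At an unadjusted p under 0.05, 14 were higher and 6 lower, beside 3573 of all 17575 genes in either direction. Against 5xFAD alone 6 were higher in edgeR's test, beside 5.34% of all genes. These counts too are near the background and are no result about the neighbours. Fcrls, a microglial Fc receptor-like gene, was at 59.8, 53.03 and 66.6 CPM in 5xFAD and 61.8, 58.6 and 68.9 CPM in carriers, a difference of 0.08 ± 0.13 (adjusted p = 0.767). The 41 set-apart genes lay on 14 of 20 chromosomes with at least 100 tested genes, with at most 6 on 1 chromosome.

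Of 27 tested genes of the RGS family and the R7 complex, 1 was lower, Rgs6, and 1 higher, Rgs11, beside 0.563% and 3.47% of all genes. Without carrier library 1, 3 were lower and 3 higher, without wild-type library 3, 2 were lower, and without carrier library 3 none was higher. Rgs11, another R7 member, was at 21.3, 25.1 and 17.6 CPM in wild-type mice, 10.9, 11.95 and 13.2 CPM in 5xFAD mice and 22.7, 30.6 and 32.7 CPM in carriers. It was low in 5xFAD alone, and carriers overlapped wild-type, so that its call of 0.84 ± 0.13 (adjusted p = 0.00488) came through 5xFAD. Rgs11 gave 0.73 (adjusted p = 0.0510) without carrier library 3 and 0.43 without the 3 libraries that stand apart in regional marker genes. Rgs17 was at 115 to 138 CPM in the other 6 libraries and 92.99 to 122 in carriers, a difference of -0.26 ± 0.08 (adjusted p = 0.104). The genes whose log2 CPM over the 9 libraries was most like that of Rgs6 were Dennd2a (Pearson r = 0.974), Clmp (0.973), Mrpl34 (0.971), Rtl8a (0.968) and Atp5g3 (0.955). These correlations run over libraries that share the same 3 groups and are a description. Their differences were much smaller, -0.35 ± 0.07 for Dennd2a, -0.38 ± 0.07 for Clmp, -0.31 ± 0.09 for Mrpl34, -0.21 ± 0.06 for Rtl8a and -0.18 ± 0.05 for Atp5g3, and of the 5 only Dennd2a (adjusted p = 0.0169) and Clmp (adjusted p = 0.0110) passed.

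**Figure D3:**
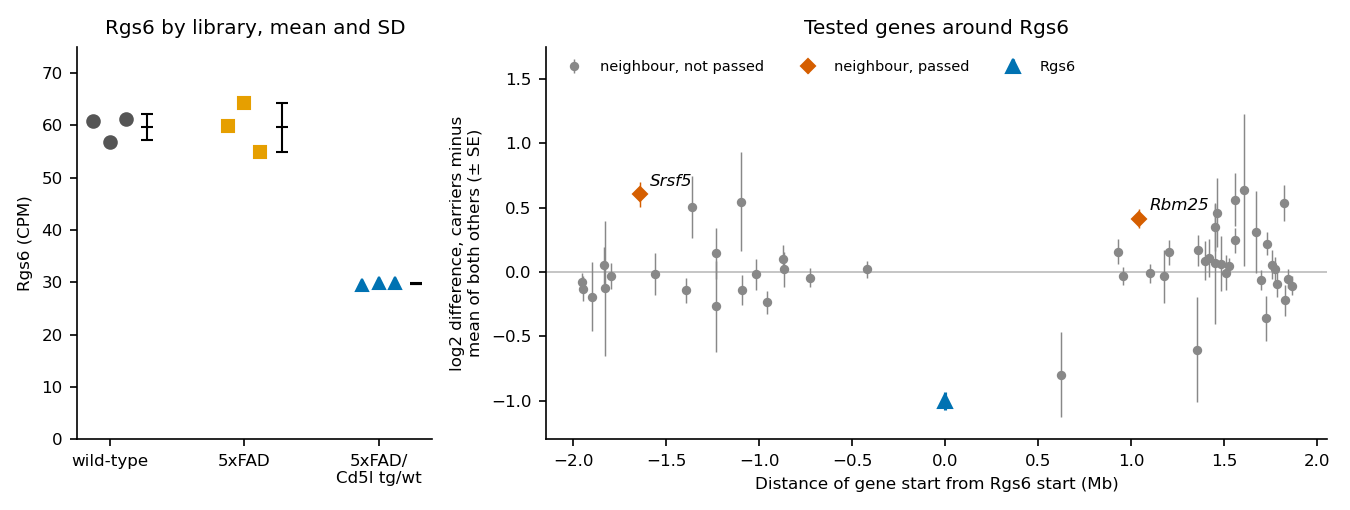
Left, CPM of Rgs6 in each library with the mean and SD (n = 3) of each genotype; carriers sit between 29.6 and 29.9 CPM and the others between 54.9 and 64.2 CPM. Right, log2 difference ± SE of carriers from the mean of both others for each tested gene within 2 Mb of Rgs6, by distance between gene starts; the neighbours that passed, Srsf5 and Rbm25, are above 0.

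The other 11 set-apart genes that were lower are described from those with the best known roles. Slc5a7 (chromosome 17, 54580618 to 54606062), the choline transporter that supplies acetylcholine synthesis, was at 18.9, 17.5 and 23.1 CPM in wild-type mice, 12.2, 13.1 and 13.6 CPM in 5xFAD mice and 6.92, 8.97 and 8.63 CPM in carriers. It stepped down without overlap, by -0.61 ± 0.14 (adjusted p = 0.0295) from wild-type to 5xFAD and by -0.66 ± 0.14 (adjusted p = 0.0197) from 5xFAD to carriers. Chrna3 (chromosome 9, 54917395 to 54933846), the alpha3 subunit of nicotinic acetylcholine receptors, was at 2.09, 1.95 and 2.49 CPM in wild-type mice, 3.04, 3.199 and 4.08 CPM in 5xFAD mice and 0.999, 0.270 and 0.282 CPM in carriers. Carrier libraries 2 and 3 were just above the 0.202 and 0.169 CPM that 3 counts correspond to there, and carrier library 1 was higher, a difference of -2.41 ± 0.38 (adjusted p = 0.00491). Scg2 (chromosome 1, 79412386 to 79417837), secretogranin II of dense-core vesicles, was at 298, 293 and 341 CPM in wild-type mice, 345, 385 and 318 CPM in 5xFAD mice and 245, 169.7 and 169 CPM in carriers, with carrier library 1 nearest to the others and a difference of -0.76 ± 0.12 (adjusted p = 0.00453). Unc13c, a priming factor of synaptic vesicles that is abundant in cerebellar granule cells, was at 80.7, 83.97 and 124 CPM in wild-type mice, 90.2, 95.6 and 86.7 CPM in 5xFAD mice and 65.4, 48.4 and 64.8 CPM in carriers. Wild-type library 3 was its highest library, and the difference was -0.65 ± 0.14 (adjusted p = 0.0216).

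Syt6, a synaptotagmin, was at 38.9 to 52.8 CPM in the other 6 libraries and 30.8 to 32.6 CPM in carriers, a difference of -0.50 ± 0.08 (adjusted p = 0.00603) with the carriers close to each other. Sv2c, a vesicle glycoprotein of basal ganglia and hindbrain neurons, was at 99.4 to 133 against 68.7 to 89.2 CPM, a difference of -0.53 ± 0.10 (adjusted p = 0.0131). Apln, the peptide apelin, was at 28.2 to 34.5 against 19.04 to 25.8 CPM, a difference of -0.57 ± 0.11 (adjusted p = 0.0131). Pcp4l1, a small calmodulin-binding protein, fell by 0.40 ± 0.07 from 163 to 199 to 126 to 141 CPM. Sema5a, an axon guidance semaphorin, differed by -0.40 ± 0.07 (adjusted p = 0.00593), Clmp, a cell adhesion protein, by -0.38 ± 0.07 (adjusted p = 0.0110), and Ccdc184 by -0.50 ± 0.10 (adjusted p = 0.0171).

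Markers of brain regions also differed between libraries, but the carriers did not move together in them. The summed level of 23 tested monoamine and cholinergic genes was 354 to 432 CPM in wild-type and 381 to 425 CPM in 5xFAD, and among carriers it was 433, 258 and 252 CPM in libraries 1, 2 and 3. The hypothalamus list gave 878, 397 and 414 CPM in the carriers against 699 to 843 CPM in the other 6. The hindbrain and cerebellum list gave 1480 CPM in wild-type library 3 and 249.7 to 399.7 CPM in the other 8, and the cerebellar granule cell gene Cbln3 was at 18.5, 2.98 and 192 CPM in wild-type mice against 0.395 to 0.533 CPM in carriers. The striatum list was lowest in carrier library 1, at 1040 CPM against 1278 to 1910 CPM in the other 8. The part of these regional differences in the results was not tested. The fit without wild-type library 3 and carrier libraries 2 and 3 leaves carrier library 1 alone, taken to vary as the other groups do. It holds no spread among carriers, so that only its differences are given. Of the lower genes, Rgs6 gave -1.01, Slc5a7 -1.16, Apln -0.75, Scg2 -0.40 and Unc13c -0.41 there. Chrna3 gave -1.40, Syt6 -0.45, Pcp4l1 -0.31, Sema5a -0.29, Clmp -0.36, Sv2c -0.26 and Ccdc184 -0.27.

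**Figure D4:**
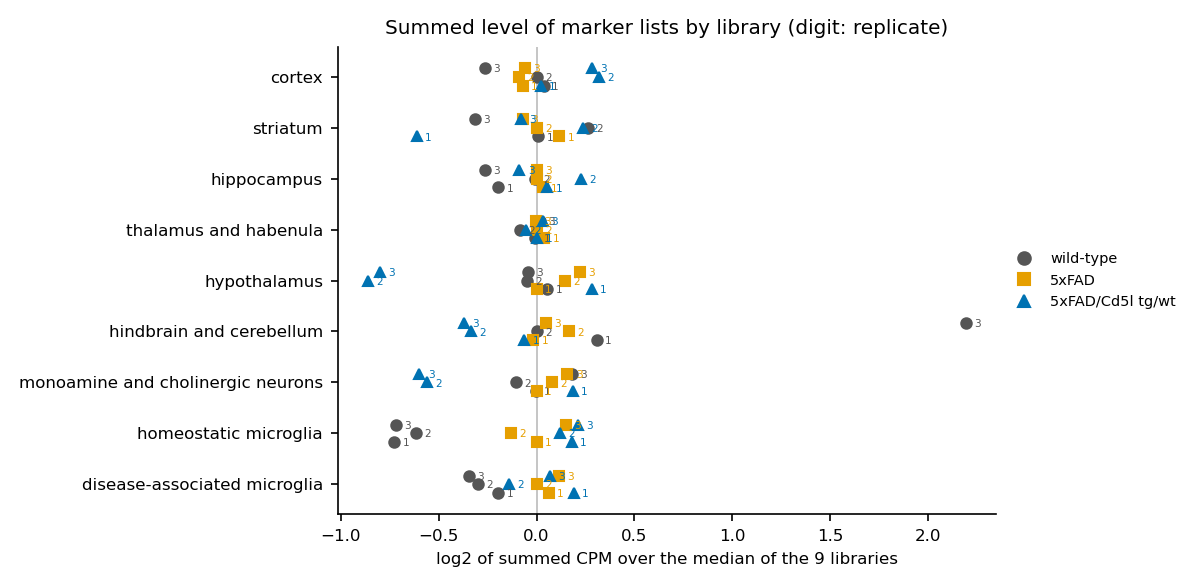
Log2 of the summed CPM of each marker list in each library over the median of the 9 libraries, with the replicate number beside each point. Wild-type library 3 stands out for hindbrain and cerebellum, carrier libraries 2 and 3 for hypothalamus and for monoamine and cholinergic neurons, carrier library 1 for striatum, and the wild-type libraries for homeostatic microglia.

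Of 23 tested monoamine and cholinergic genes, 5 were lower, beside 0.563% of all genes, at a median log2 difference of -0.61 beside 0.01 over all tested genes. The count was 15 without carrier library 1, 2 without carrier library 3, and 3 without carrier library 2, wild-type library 1 or 5xFAD library 1 or 2. Besides Slc5a7 and Chrna3 these were Slc18a3, which loads acetylcholine into vesicles, Chat, which makes it, and Slc6a2, the noradrenaline transporter. Slc18a3 was at 8.14, 6.202 and 6.08 CPM in wild-type mice, 2.71, 4.602 and 2.74 CPM in 5xFAD mice and 2.13, 1.69 and 2.54 CPM in carriers, with 5xFAD already below wild-type, and differed by -1.17 ± 0.24 (adjusted p = 0.0172). Chat was at 7.500, 6.26 and 8.505 CPM in wild-type mice, 6.75, 6.73 and 4.95 CPM in 5xFAD mice and 3.396, 4.86 and 3.22 CPM in carriers, a difference of -0.82 ± 0.19 (adjusted p = 0.0313). Slc6a2 was at 1.98, 1.46 and 3.04 CPM in wild-type mice, 0.265, 1.07 and 0 CPM in 5xFAD mice and at most 0.0666 CPM in carriers, and at such levels the size of the difference is not given. Without the 3 libraries that stand apart, Slc18a3 gave -1.22 and Chat -0.95.

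Of 22 calcium sensors and priming factors of vesicle release, 4 were lower and 1 higher, beside 0.563% and 3.47% of all genes. The lower count was 0 without carrier library 3 and 2 without carrier library 2 or 5xFAD library 1 or 2. Doc2b, a calcium sensor of spontaneous release, was at 50.7, 56.5 and 58.6 CPM in wild-type mice, 74.5, 72.5 and 63.98 CPM in 5xFAD mice and 46.9, 46.8 and 43.2 CPM in carriers. Its difference was -0.45 ± 0.08 (adjusted p = 0.00674), and -0.40 without the 3 libraries that stand apart. Unc13b, a priming factor, was the gene that rose, by 0.56 ± 0.11 (adjusted p = 0.0171), and gave 0.25 without the 3 libraries that stand apart. The higher count was 3 without carrier library 1 and 0 without carrier library 2 or 3 or 5xFAD library 1 or 2. The main synaptic sensor Syt1 did not pass. Of 13 granins and hormone-processing genes, 2 were lower, Scg2 and Vgf, beside 0.563% of all genes. The count was 4 without carrier library 1 and 1 without carrier library 2 or 3 or 5xFAD library 1 or 2. Vgf, a neurotrophin-induced secretory peptide, was at 309.6, 294 and 239 CPM in wild-type mice, 342, 365 and 259.7 CPM in 5xFAD mice and 202, 221 and 216 CPM in carriers, a difference of -0.50 ± 0.11 (adjusted p = 0.0228) that came through 5xFAD. Of 16 striatal genes 3 were lower, beside 0.563% of all genes. They were the transcription factors Isl1 at -1.08 ± 0.23 (adjusted p = 0.0242) and Six3 at -0.56 ± 0.10 (adjusted p = 0.00921) and the tachykinin gene Tac1 at -0.54 ± 0.13 (adjusted p = 0.0351). The dopamine receptors of that list did not pass, and the count was 0 without carrier library 3 and 1 without carrier library 2 or 5xFAD library 1 or 2.

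The 2 microglial lists had the largest shares of higher genes among the 44 lists. Of 30 tested genes of disease-associated microglia, 21 were higher, beside 3.47% of all genes, at a median of 0.78. The same list had 24 genes higher than wild-type, where 1.38% of all genes passed, and 1 higher than 5xFAD, Lilrb4a, where 5.34% of all genes passed. Its members thus passed almost wholly through wild-type. Cst7, a cysteine protease inhibitor of plaque microglia, was at 0.233, 0.182 and 0.207 CPM in wild-type mice, 29.5, 20.2 and 39.9 CPM in 5xFAD mice and 38.7, 28.9 and 31.2 CPM in carriers, and its carriers and 5xFAD libraries overlapped. Clec7a, a receptor for beta-glucans, was at 0.581, 0.122 and 0.346 CPM in wild-type mice, 12.7, 10.6 and 13.5 CPM in 5xFAD mice and 24.04, 14.8 and 21.3 CPM in carriers, with all carriers above all others and a difference from 5xFAD of 0.71 ± 0.21 (adjusted p = 0.0650). Trem2, a lipid-sensing receptor, was at 45.8 to 66.3 CPM in 5xFAD and 62.1 to 81.2 CPM in carriers, a difference of 0.42 ± 0.15 (adjusted p = 0.118).

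Of 19 homeostatic microglial genes, 13 were higher, at a median of 0.60. The share over all genes was 3.47%, for this and the other lists of this paragraph. Above wild-type 15 passed, beside 1.38% of all genes, and 0 passed against 5xFAD in edgeR's test, with DESeq2 or with limma-voom (5 higher at an unadjusted p under 0.05). Without carrier library 3 the counts of higher genes were 13 for the disease-associated, 7 for the homeostatic, 9 for the lysosomal and 3 for the reactive astrocyte list, the last 2 being described next. Of 30 lysosomal genes, 15 were higher, and 3 of them, Tcirg1 and Man2b1 among them, also passed above 5xFAD, as 5.34% of all genes did. The complement list had 9 of 16 higher, with C4b set apart. Its C1q chains did not separate carriers from 5xFAD: C1qa was at 108, 88.2 and 108 CPM in 5xFAD and 122, 91.03 and 118 CPM in carriers, a difference of 0.13 ± 0.11 (adjusted p = 0.553). In the reactive astrocyte list 6 of 14 were higher. Gfap, the astrocyte filament protein, was at 272, 205 and 217 CPM in wild-type mice, 698, 650.4 and 714 CPM in 5xFAD mice and 1064, 763 and 857 CPM in carriers, in 3 steps without overlap, with a difference from 5xFAD of 0.38 ± 0.12 (adjusted p = 0.0856) that missed the threshold.

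Of 28 tested genes of the interferon list 4 passed as higher, beside 3.47% of all genes. Before adjustment (p under 0.05) 22 were higher, beside 3573 of all 17575 genes in either direction. Leaving out libraries gave 7 without carrier library 1, 2 without carrier library 2 or wild-type library 2, 1 without 5xFAD library 1 or 2 and 0 without carrier library 3. Under all 4 scalings all 28 had a difference above 0, beside 9091 of 17575 over all genes. Of the 28, 7 had carriers above all other libraries, beside 3.8% of all genes. The median was 0.57 against the mean of both, 0.52 against 5xFAD and 0.82 against wild-type. The genes that passed were Trim30a at 1.04 ± 0.19 (adjusted p = 0.0113), Rsad2 at 1.12 ± 0.24 (adjusted p = 0.0217), Stat2 at 0.42 ± 0.09 (adjusted p = 0.0248) and Xaf1 at 0.61 ± 0.15 (adjusted p = 0.0457). Rsad2, the antiviral enzyme viperin, was at 1.74, 1.09 and 1.45 CPM in wild-type mice, 1.13, 1.52 and 2.07 CPM in 5xFAD mice and 2.996, 3.57 and 3.22 CPM in carriers, with no overlap. Stat2, which carries the interferon signal to the nucleus, was at 26.2, 23.9 and 29.2 CPM in wild-type mice, 21.4, 19.8 and 23.3 CPM in 5xFAD mice and 28.9, 34.7 and 31.9 CPM in carriers, so that carriers overlapped wild-type. The members share an inducing pathway and the same 9 libraries, and the count over the list is no test. Of the antigen presentation list, 4 of 15 were higher (1 without carrier library 3, and 2 without wild-type library 2 or 3 or 5xFAD library 1 or 2), among them H2-D1 at 0.60 ± 0.11 (adjusted p = 0.0103) and Tap1 at 0.91 ± 0.23 (adjusted p = 0.0456).

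**Figure D5:**
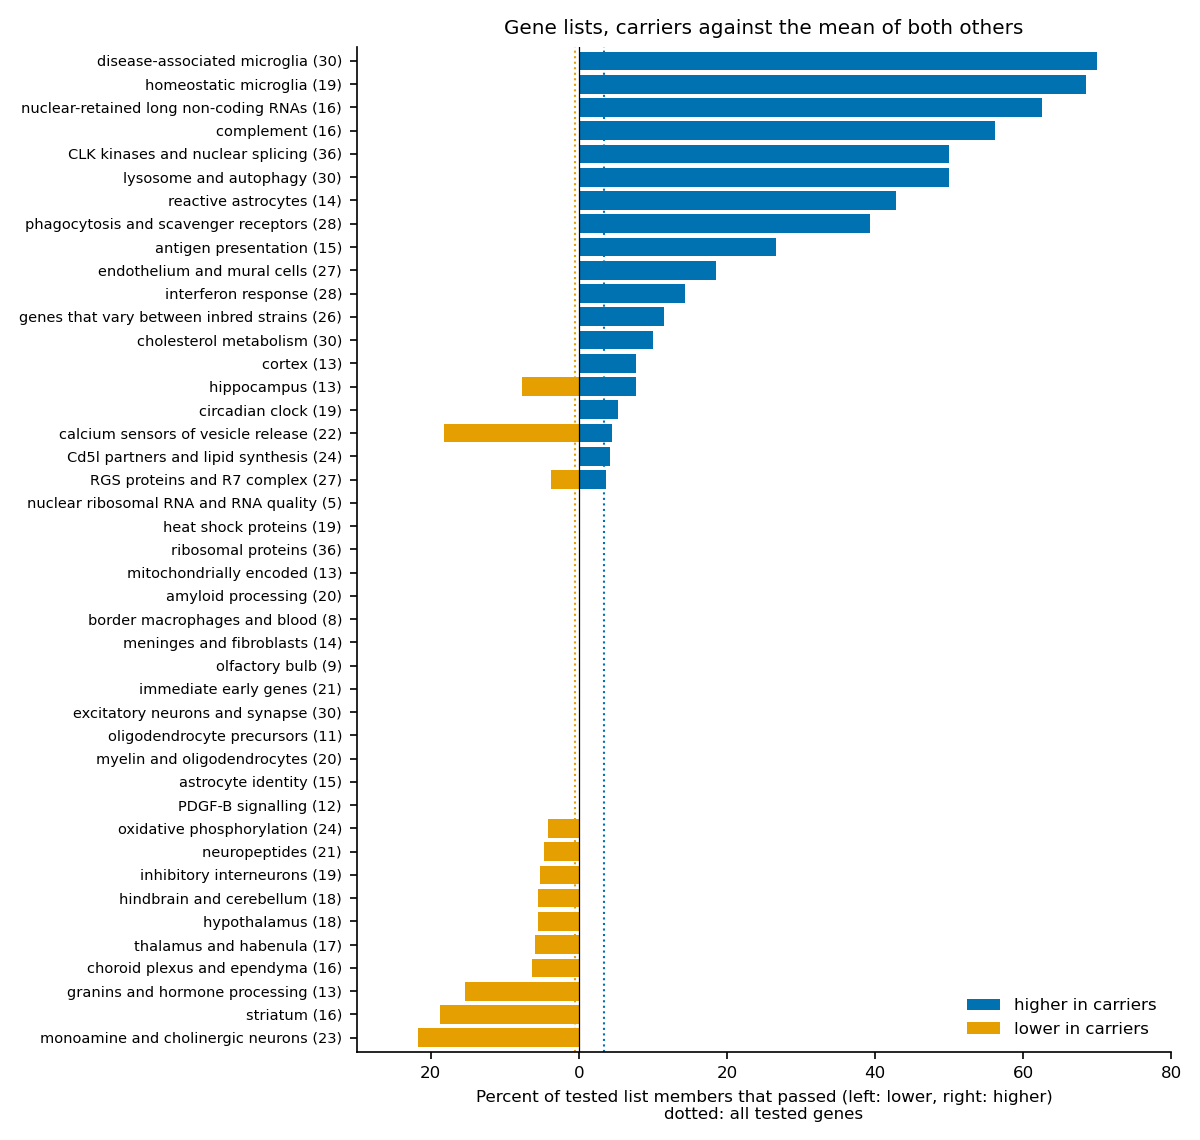
Percent of tested members of each gene list that passed as higher (right) or lower (left) in carriers against the mean of both others, with the number tested in brackets. Dotted lines mark the shares over all tested genes, 3.47% higher and 0.563% lower; microglial, complement, lysosomal, splicing and nuclear RNA lists lie to the right, and monoamine and cholinergic, striatal and granin lists to the left.

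The receptor and the intracellular target of CD5L did not pass. Cd36, the receptor for CD5L uptake, was at 1.05 to 2.13 CPM in the other 6 libraries and 0.790 to 2.397 CPM in carriers. Fasn, fatty acid synthase, was at 284 to 332 against 283 to 366 CPM, a difference of 0.12 ± 0.08 (adjusted p = 0.460). Of 12 genes of PDGF-B signalling, whose promoter drives the transgene, 0 passed in edgeR's test, with DESeq2 or with limma-voom (1 at an unadjusted p under 0.05), and Pdgfb differed by 0.34 ± 0.10 (adjusted p = 0.0823). Pdgfb passed without carrier library 1, at 0.43 (adjusted p = 0.0180), and with no filter on low counts, at 0.32 (adjusted p = 0.0228). Of 30 genes of cholesterol metabolism 3 were higher, beside 3.47% of all genes, and 7 had carriers above all others, beside 3.8%. The count of higher genes was 0 without carrier library 2 or 3 or 5xFAD library 2 and 1 without wild-type library 2 or 5xFAD library 1. It was 5 without 5xFAD library 3 and 6 without carrier library 1. Lss, which closes the sterol ring, was at 41.9, 37.8 and 36.9 CPM in wild-type mice, 26.01, 29.97 and 37.8 CPM in 5xFAD mice and 48.9, 55.5 and 44.9 CPM in carriers, a difference of 0.51 ± 0.11 (adjusted p = 0.0205), and Fdft1, which makes squalene, differed by 0.27 ± 0.06 (adjusted p = 0.0338).

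The 392 higher genes that passed through 5xFAD alone held another set, low in 5xFAD and near wild-type in carriers. In 214 of the 610 higher genes 5xFAD had passed as lower than wild-type (2.44% of all tested genes did), and in 117 as higher. Of 16 nuclear-retained long non-coding RNAs, 10 were higher in the contrast, 12 passed above 5xFAD and 0 above wild-type in edgeR's test or the other tools (3 at an unadjusted p under 0.05). Over all genes these shares were 3.47%, 5.34% and 1.38% in edgeR's test, for this and the other lists of this paragraph. Meg3, an imprinted non-coding RNA of neurons, was at 1384, 1758 and 1248 CPM in wild-type mice, 474, 443 and 537 CPM in 5xFAD mice and 1457, 2236 and 2167 CPM in carriers, and carriers overlapped wild-type. Malat1, a non-coding RNA of nuclear speckles, was at 358, 421 and 334 CPM in wild-type mice, 103, 106 and 122 CPM in 5xFAD mice and 291, 557 and 534 CPM in carriers, with carrier library 1 below the range of wild-type and libraries 2 and 3 above it. Of 36 splicing kinases and nuclear splicing genes, 18 were higher, 23 passed above 5xFAD and 0 above wild-type in edgeR's test or the other tools (7 at an unadjusted p under 0.05). Without carrier library 2 or 3 the splicing list held 10 or 5 higher genes, and without library 3 the non-coding list held 5. Clk1, a kinase of splicing factors, was at 109.7, 117 and 119 CPM in wild-type mice, 53.9, 53.5 and 54.01 CPM in 5xFAD mice and 106, 144 and 139.8 CPM in carriers. Of 27 endothelial and mural genes, 5 were higher, 13 passed above 5xFAD and 0 above wild-type in edgeR's test or the other tools (1 at an unadjusted p under 0.05). Without carrier libraries 1, 2 and 3 in turn 9, 2 and 2 of them were higher in the contrast. Abcb1a, the drug efflux pump of the blood-brain barrier, was at 34.01, 35.9 and 35.7 CPM in wild-type mice, 18.3, 20.8 and 19.3 CPM in 5xFAD mice and 36.7, 36.2 and 36.1 CPM in carriers, and 5xFAD fell below both, at -0.85 ± 0.08 (adjusted p = 9.87e-05) from wild-type.

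The share of counts from long non-coding RNAs moved with this set: it was 1.46% ± 0.0980 in wild-type, 1.17% ± 0.0261 in 5xFAD and 1.55% ± 0.139 in carriers (mean ± SD, n = 3). The share of nuclear ribosomal RNA was 0.0584% to 0.255% in wild-type, 0.184% to 0.265% in 5xFAD and 0.0661% to 0.121% in carriers. Xist, also a nuclear RNA, was at 451 to 574 CPM in 5xFAD and 880.3 to 1016 CPM in the other 6 libraries. The part of these shares in the calls was not tested.

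Myelin, astrocyte identity and excitatory neuron lists held no call in edgeR's contrast with the mean of both over all 9 libraries, but did without carrier library 1. That fit called 8 myelin genes lower, 5 excitatory neuron genes higher and 2 lower, and 1 astrocyte identity gene higher and 2 lower. Over all 17942 genes tested in it, 1056 were higher and 609 lower. In these lists 1 gene was called without wild-type library 1 (myelin, lower), wild-type library 2 (excitatory, lower) or 5xFAD library 3 (astrocyte, higher). Of 20 myelin and oligodendrocyte genes 0 passed, at a median of -0.23, while 6 were lower with DESeq2 and 1 with limma-voom. At an unadjusted p under 0.05, 10 were lower, beside 3573 of all 17575 genes in either direction. Mbp, myelin basic protein, was at 3642, 3166 and 3516 CPM in wild-type mice, 3192, 3338 and 2831 CPM in 5xFAD mice and 2942, 1985 and 2638 CPM in carriers, with carrier library 2 the lowest. Its difference was -0.38 ± 0.10 (adjusted p = 0.0643), and -0.51 (adjusted p = 0.00831) without carrier library 1. Of 30 genes of excitatory neurons and synapses 0 passed, at a median of 0.11; at an unadjusted p under 0.05 there were 12 higher and 2 lower, with DESeq2 3 and 1, and with limma-voom 0 and 1. Of 15 astrocyte identity genes 0 passed, at a median of -0.07, with 5 lower at an unadjusted p under 0.05, 1 with DESeq2 and 0 with limma-voom. Against 5xFAD alone, edgeR's test called 2 astrocyte identity genes lower and 1 excitatory neuron gene higher, beside 0.888% and 5.34% of all genes. None of the 36 ribosomal protein genes, 19 heat shock genes and 13 mitochondrially encoded genes passed the contrast with the mean of both in edgeR's test or with limma-voom. At an unadjusted p under 0.05, 1 ribosomal protein gene and 7 heat shock genes were lower in it and 1 mitochondrial gene higher, and DESeq2 called 1 ribosomal protein gene lower. Against 5xFAD alone, 2 heat shock genes were lower in edgeR's test, where 0.888% of all genes were, 2 with limma-voom and 6 with DESeq2. Of 24 nuclear genes of oxidative phosphorylation 1 was lower, Ndufb8 at -0.30 ± 0.07 (adjusted p = 0.0311), beside 0.563% of all genes. The count was 2 without carrier library 1 or 5xFAD library 3. It was 0 without any 1 of the libraries wild-type 1 or 2, 5xFAD 1 or 2 or carrier 2 or 3. Of the 24, 8 had carriers below all other libraries, beside 3.25% of all genes. The library totals ran from 14575416 to 17865150 counts, and the pituitary genes Gh and Prl were at most at 0.112 and 0.116 CPM.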

How the data were processed

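The authors deposited whole-number read counts per gene for 9 brain libraries; the mouse build is GRCm39 per the submitters' processing notes, and the sources used here do not give the aligner, counter, strandedness or annotation. Where reads of overlapping, antisense or near-identical genes went is therefore unknown. Library totals were 14575416 to 17865150 counts. Genes kept by filterByExpr (minimum count 10) were scaled by TMM and fitted in edgeR 4.0.16 (R 4.3.3) with a quasi-likelihood model, 1 coefficient per genotype over all 9 libraries. The contrast was carriers minus the equal-weight mean of 5xFAD and wild-type, and each genotype was also compared alone. P-values were adjusted by Benjamini-Hochberg over the 17575 genes tested, or over the genes of each alternative. They judge a difference against the spread between libraries within the groups fitted. The alternative without wild-type library 3 and carrier libraries 2 and 3 leaves 1 carrier library, and only its differences are given. On simulated data for 17285 genes, the fit found 58.2% of 1.5-fold, 86.6% of 2-fold and 97.0% of 4-fold changes, and 5.85% of its calls were false. The simulation gave all 9 libraries the same baseline, with no difference between 5xFAD and wild-type and no library that stood apart. Only genes of at least 1 CPM were changed. Its shares therefore do not carry over to the calls in the real data.

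The comparison and the gene lists were chosen with earlier results of these data known. Named genes were Cd5l, up to 15 higher and 15 lower set-apart genes of at least 1 CPM with the smallest p, up to 4 members of each list, neighbours of Rgs6 and Cd5l, and the 5 genes most like Rgs6; the remaining set-apart genes and other list members were named after their values were seen. Same-numbered libraries of different genotypes did not deviate together (Pearson r from -0.100 to 0.154 over 9 pairs), and no 2 libraries of the same genotype agreed within counting noise. Figures used matplotlib 3.10.9. Alternatives were other scalings, filters and thresholds, DESeq2 1.42.0, limma-voom (limma 3.58.1), glmTreat, a replicate block, gene length offsets, leaving out globin, mitochondrial and ribosomal RNA genes, 1 pooled group of 6, and libraries left out.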

Additional observations from a re-analysis of the deposited data

Results flagged for a closer look

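For 10 set-apart genes the carrier difference depended on which genotype without Cd5l it was measured from, and the 5xFAD minus wild-type difference that separates the 2 values passed in edgeR's test of the same fit. The difference was positive for 9 of them, so that carriers stood farther above wild-type than above 5xFAD. On the log2 scale it was 2.19 for Lilrb4a (adjusted p = 0.0229), 1.33 for Ptpn6 (adjusted p = 0.000772), 1.09 for C4b (adjusted p = 0.0107), 0.66 for Nckap1l (adjusted p = 0.00885) and 0.85 for Rasal3 (adjusted p = 0.0152). It was 0.84 for Ptprc (adjusted p = 0.0325), 0.49 for Man2b1 (adjusted p = 0.0230) and 0.86 for Apbb1ip (adjusted p = 0.0220). For Olfr111 it was 3.70 (adjusted p = 0.0184), a fitted value against wild-type libraries that were at 1 count at most and therefore no bound. For Slc5a7 it was -0.61 (adjusted p = 0.0295), so that carriers stood farther below wild-type than below 5xFAD.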

How the results depend on the processing

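All 41 set-apart genes kept their direction under the 24 alternatives in which they were tested (Lgals12 did not enter under a filter of 1 CPM in 3 libraries). As their 3 carrier libraries lay outside the range of the other 6, this was largely fixed in advance. Beside 709 genes passed (610 higher, 99 lower), 29 and 12 set apart and 615 passing between 5xFAD and wild-type, no filter gave 1931 (1189, 742), 146 and 262, and 1354. DESeq2 gave 1102 passed (299 lower) and 50 and 53 set apart. glmTreat against a fold of 1.2 gave 188 (181, 7), 4 and 2, and 274; adjusted p under 0.01 gave 201 (192, 9), 3 and 1, and 197; under 0.10 it gave 1402 (1081, 321), 66 and 33, and 958. The 6 other libraries as 1 group gave 2 (1, 1). Without wild-type library 3 and carrier libraries 2 and 3, 325 passed (202 higher), 75 were set apart as lower and 1154 passed between 5xFAD and wild-type. With a replicate block on numbers that do not pair the libraries, 546 passed (481 higher, 65 lower), 21 and 9 were set apart and 506 passed between 5xFAD and wild-type. Leaving out each library in turn gave 138 to 1665 passed, 127 to 1056 higher and 11 to 609 lower, 2 to 125 and 2 to 241 set apart, and 206 to 850 between 5xFAD and wild-type. Of the calls, 86.0% were higher, 72.9% with DESeq2, 61.6% with no filter and 63.4% without carrier library 1. The cause of these shifts was not tested. Uncalled differences changed sign for Sipa1l1, which gave -0.043 with gene length offsets, -0.083 without the 3 libraries and -0.048 to 0.052 when each library was left out, and for Cd36, which gave 0.415 without the 3 libraries and -0.832 to 0.0488 when each library was left out. In the simulation, 32.8% of 1.5-fold and 73.1% of 2-fold changes were found set apart. These shares do not carry over to the real data. A gene can miss a threshold and still differ, so that absence from the 41 does not show an equal level.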
